A study of Mus musculus with 9 samples.

Results

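The circadian clock genes described here are 10 core clock and clock output genes, Arntl, Npas2, Nfil3, Per1, Per2, Per3, Nr1d1, Nr1d2, Dbp and Ciart, found by symbol among the 22262 genes counted at least once. They were measured in the upper colon of 9 wild-type female C57BL/6N mice aged 12 months. WT_SE (mice 1, 2, 3 and 5) lived in the standard environment, and WT_EE (mice 1 to 5) lived in the enriched environment, labelled enhanced environment, in larger shared cages with objects, tunnels and running wheels. Enriched cages also held more mice each than standard cages, and the cage of a single mouse is not given. Every test below takes the mouse as the unit, so effects of cage and of environment cannot be told apart. All mice were kept on a daily light-dark cycle and were killed during the light phase, and no hour is given for a single mouse. Each library held between 295535 and 454043 molecule counts from 3′ messenger RNA sequencing, which reads only the tail end of each transcript, so long transcripts gain no extra counts.

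The circadian clock is a feedback loop of transcription that runs in nearly every cell of the body. Arntl (also called Bmal1) pairs with Clock or Npas2 and switches on the Per and Cry genes, whose proteins then hold the pair back, so that the positive and the negative arm peak at different times of day. Nr1d1 and Nr1d2 encode the REV-ERB receptors, which repress Arntl, and the transcription factors Dbp and Nfil3 act in opposite ways on the same DNA element, the D-box. In the gut the clock is known to follow feeding time as well as light, which makes the level of a clock gene depend on when the tissue was taken.

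Arntl had the smallest p-value of the members, with a level in WT_EE above that in WT_SE by 1.0 on the log2 scale, and no member passed the adjustment over all genes. In edgeR's quasi-likelihood test, Arntl had an unadjusted p-value under 0.05, with higher values in WT_EE, which is 1 of the 9 members that reached the filter on low counts (at least 4 CPM, counts scaled to a common library total, in at least 1 library) in both environments. Among all 17441 genes tested, 7.65% had such a p-value, 4.31% with higher and 3.34% with lower values in WT_EE. None of the 10 members had an adjusted p-value under 0.05 (edgeR, Benjamini-Hochberg), against 0.0401% of all genes, and DESeq2 and limma-voom also gave 0. The normalized values of the environments overlapped for all 10 members, whereas 1.38% of all genes lay wholly higher and 1.20% wholly lower in WT_EE. Nfil3, the remaining member, also had an unadjusted p-value under 0.05, but it passed the filter only through WT_EE libraries, where it was higher, and is therefore not read against the share of all genes. The other 9 members reached the filter in every library.

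**Figure D1:**
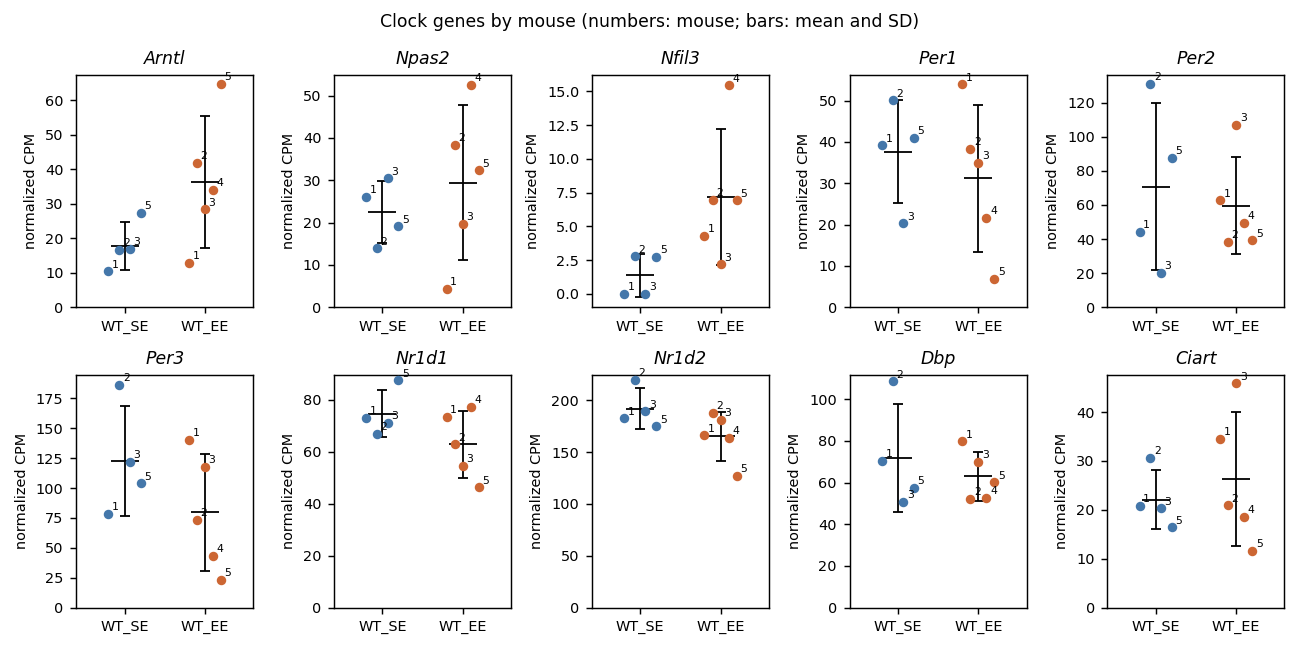
TMM-normalized CPM of each clock gene (vertical axes) in the 4 WT_SE and 5 WT_EE mice (horizontal axes), with mouse numbers beside the points and bars for mean and SD. The environments overlap in every panel, and WT_EE mouse 5 has the highest Arntl and the lowest Per1, Per3, Nr1d1, Nr1d2 and Ciart value of the WT_EE mice.

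The positive arm comes first. Arntl (ENSMUSG00000055116), which spans 113207465 to 113314126 of chromosome 7 (GRCm38, plus strand), had 4, 6, 5 and 10 counts in WT_SE mice 1, 2, 3 and 5, and 6, 12, 13, 11 and 28 counts in WT_EE mice 1 to 5. WT_EE mouse 5 was the highest and WT_EE mouse 1 lay among the WT_SE mice, so that the environments overlapped. The mean level was 17.8 ± 7.0 CPM for WT_SE (SD, n = 4) against 36.4 ± 19.1 CPM for WT_EE (SD, n = 5). This was a log2 fold change of 1.0 with a standard error of 0.40 (edgeR, unadjusted p = 0.0161, Benjamini-Hochberg adjusted p = 0.481). A two-sided exact permutation test of the difference in mean CPM gave p = 0.0952. The call depended on the test and on single mice. With limma-voom the log2 fold change was 0.83 (unadjusted p = 0.0737). Without WT_EE mouse 5 the log2 fold change was 0.65 (edgeR, unadjusted p = 0.122), and without WT_SE mouse 1 it was 0.80 (unadjusted p = 0.0635). WT_EE mouse 1 was the only WT_EE mouse within the range of WT_SE, so leaving it out removed the overlap by itself. The exact permutation test then gave p = 0.0286, the smallest value it can give with 4 mice per environment. No difference is read from that fit.

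Npas2, which can take the place of Clock as the partner of Arntl, spans 39193731 to 39363236 of chromosome 1 (plus strand). It had 10, 5, 9 and 7 counts in WT_SE and 2, 11, 9, 17 and 14 counts in WT_EE. WT_EE mouse 1 was below and WT_EE mouse 4 above every other mouse, and the coefficient of variation was 62.4% in WT_EE against 32.7% in WT_SE. The log2 fold change of 0.32 was smaller than its standard error of 0.42 (edgeR, unadjusted p = 0.451) and changed sign with limma-voom. Clock itself, whose counts ran from 53 to 67 (WT_SE) and from 60 to 85 (WT_EE), had a log2 fold change of -0.01 with a standard error of 0.15.

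The negative arm holds the Per genes, which encode the proteins that inhibit the Arntl complex, and Ciart, a further repressor of it. Per3, at 151003652 to 151044665 of chromosome 4 (minus strand), had 30, 67, 36 and 38 counts in WT_SE and 65, 21, 54, 14 and 10 counts in WT_EE. WT_EE mice 1 and 3 lay within the range of WT_SE, and WT_EE mice 2, 4 and 5 lay below all WT_SE mice. The means were 123 ± 46.2 CPM for WT_SE (SD, n = 4) against 79.6 ± 49.3 CPM for WT_EE (SD, n = 5). The fitted log2 fold change of Per3 was -0.58 with a standard error of 0.29 (unadjusted p = 0.0513, edgeR with Benjamini-Hochberg adjusted p = 0.657), and the two-sided exact permutation test gave p = 0.230. The unadjusted p-value of Per3 fell under the threshold without WT_SE mouse 1 (0.0164), WT_SE mouse 5 (0.0401), WT_EE mouse 1 (0.00379) or WT_EE mouse 3 (0.0133). Without WT_SE mouse 2 the log2 fold change was -0.29 (unadjusted p = 0.349), and without WT_EE mouse 5 it was -0.32 (unadjusted p = 0.217). Camta1 overlaps Per3 on the same strand, so counts at shared positions are uncertain.

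Per1, at 69095217 to 69109960 of chromosome 11 (plus strand), had 15, 18, 6 and 15 counts in WT_SE and 25, 11, 16, 7 and 3 counts in WT_EE. Both the highest and the lowest mouse belonged to WT_EE. Per2, at 91415982 to 91459324 of chromosome 1 (minus strand), had 17, 47, 6 and 32 counts in WT_SE and 29, 11, 49, 16 and 17 counts in WT_EE. Here the WT_SE mice spread most, with a coefficient of variation of 68.9%, and WT_SE mouse 3 was the lowest of all 9. The log2 fold changes were -0.28 for Per1 (standard error 0.35, unadjusted p = 0.434) and -0.24 for Per2 (standard error 0.32, unadjusted p = 0.462), each smaller in size than its standard error. The direction of Per2 rested on WT_SE mouse 2, without which the log2 fold change was 0.24, and that of Per1 on WT_EE mouse 5, without which it was 0.0043.

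Ciart, at 95878503 to 95882251 of chromosome 3 (minus strand), had 8, 11, 6 and 6 counts in WT_SE and 16, 6, 21, 6 and 5 counts in WT_EE. WT_EE mice 1 and 3 were above all WT_SE mice and the other 3 were within or below them. Its log2 fold change was 0.29 with a standard error of 0.38 (unadjusted p = 0.444), and without WT_EE mouse 3 it was -0.02.

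The library names of WT_SE mice 1 and 3 end differently from the other 7, and no WT_EE library shares that ending, so that only WT_SE mice 2 and 5 separate the ending from the environment. Within the 7 libraries of the common ending, the log2 fold change was -0.82 for Per2 (standard error 0.30, unadjusted p = 0.0107), and Per3 had one of -0.81 (standard error 0.34, unadjusted p = 0.0249). Arntl had one of 0.71 (standard error 0.47, unadjusted p = 0.144) in the same libraries. Two-sided exact permutation tests of 2 against 5 mice gave p = 0.0952 for Per2, 0.238 for Per3 and 0.381 for Arntl. No gene passed the edgeR Benjamini-Hochberg adjustment there, with 680 genes at an unadjusted p-value under 0.05.

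The REV-ERB receptors varied little between mice, with a coefficient of variation of 20.5% for Nr1d1 and 14.3% for Nr1d2 in WT_EE, and lower ones in WT_SE. Nr1d1, at 98767932 to 98775333 of chromosome 11 (minus strand), had 28, 24, 21 and 32 counts in WT_SE and 34, 18, 25, 25 and 20 counts in WT_EE. Nr1d2, at 18204054 to 18239127 of chromosome 14 (minus strand), was the most counted member, with 70, 79, 56 and 64 counts in WT_SE and 77, 54, 83, 53 and 55 counts in WT_EE. In normalized values WT_EE mouse 5 was the lowest of all 9 mice for both receptors, and the remaining mice overlapped. The log2 fold changes were -0.26 for Nr1d1 (standard error 0.22, unadjusted p = 0.248) and -0.22 for Nr1d2 (standard error 0.15, unadjusted p = 0.151). Approximate 95% intervals, formed from the standard error with a normal distribution, ran from -0.69 to 0.17 for Nr1d1 and from -0.51 to 0.07 for Nr1d2. They are somewhat narrower than the F test implies. With 1 mouse left out, the log2 fold changes ranged from -0.33 to -0.15 for Nr1d1 and from -0.26 to -0.12 for Nr1d2. Both were smallest in size without WT_EE mouse 5.

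The D-box factors Dbp and Nfil3, an activator and a repressor, differed in how far they could be measured. Dbp, at 45705088 to 45710203 of chromosome 7 (plus strand), had 27, 39, 15 and 21 counts in WT_SE and 37, 15, 32, 17 and 26 counts in WT_EE. WT_SE mouse 2 was the highest and the environments overlapped throughout. The log2 fold change of Dbp was -0.18 with a standard error of 0.23 (unadjusted p = 0.460), and without WT_SE mouse 2 it was 0.10. Nfil3, at 52967209 to 52981073 of chromosome 13 (minus strand), had 0, 1, 0 and 1 counts in WT_SE and 2, 2, 1, 5 and 3 counts in WT_EE. All libraries but that of WT_EE mouse 4 were at or under 3 counts, the floor used here, so its fitted fold change is not given. Over the pooled counts, 13 in WT_EE and 2 in WT_SE, the ratio per total count was 4.68 with an exact 95% interval from 1.06 to 42.7, which covers counting error only. As Nfil3 was tested only through the environment where it was higher, no difference is read from its tests or from this interval.

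**Figure D2:**
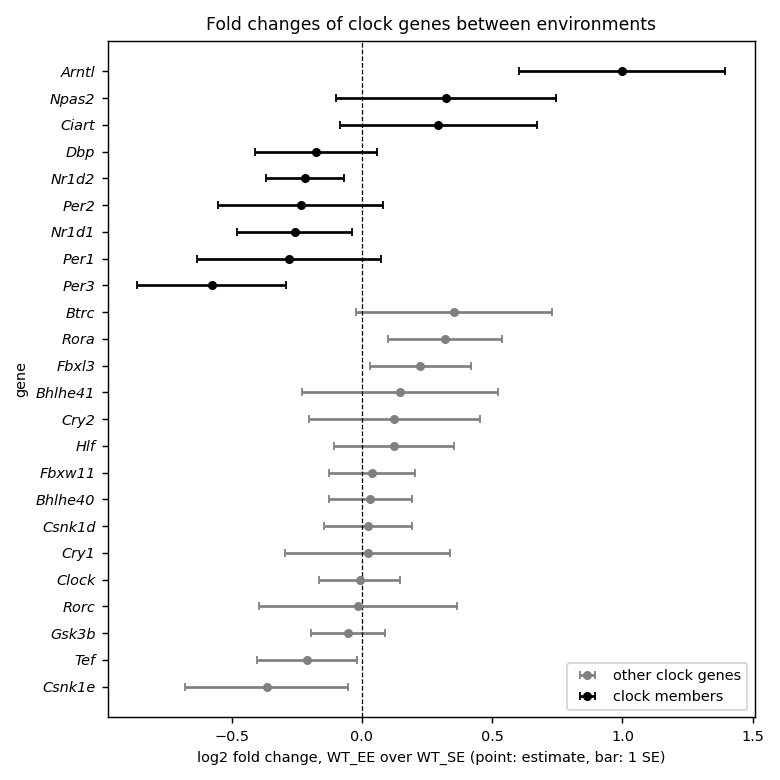
Log2 fold changes between WT_EE and WT_SE (horizontal axis, points) with 1 standard error (bars) for 9 clock members in black and, in grey, the other clock genes with a mean of at least 5 counts. Arntl, at 1.0, lies farthest from 0, and Per3, at -0.58, farthest on the other side.

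Sequence windows are shown for 3 negative arm genes, since these hold the elements on which the Arntl complex and Dbp are known to act. Promoters from RefSeq (GRCm38.p6) were found for 9 members, and Per2 had no entry. The 250 bases before each start were searched on both strands for the E-box CACGTG, the D-box (TTATGTAA, TTACGTAA, TTATATAA or TTACATAA), the REV-ERB element (TAGGTCA or TGGGTCA) and the cAMP response element TGACGTCA. Of 32851 promoters, 6.02% held this E-box, 1.43% a D-box, 5.38% the REV-ERB element and 1.55% the cAMP response element. Per3 held 2 D-boxes, on the minus strand at chr4:151044837-151044896 and chr4:151044790-151044849. Ciart held 3 E-boxes, 1 in the window at chr3:95882313-95882370 and 2 in that at chr3:95882255-95882312 on the minus strand. Per1 had 2 promoters, and 1 of them held an E-box on the plus strand at chr11:69098757-69098814, inside the span of the gene. The other Per1 promoter held none of the elements searched. Capitals mark the matches.
Per3, first D-box: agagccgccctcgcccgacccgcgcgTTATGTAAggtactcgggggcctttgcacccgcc
Per3, second D-box: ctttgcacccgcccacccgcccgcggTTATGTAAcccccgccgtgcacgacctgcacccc
Ciart, first E-box: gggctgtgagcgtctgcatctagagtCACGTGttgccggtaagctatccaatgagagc
Ciart, other E-boxes: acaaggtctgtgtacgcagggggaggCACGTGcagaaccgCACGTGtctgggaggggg
Per1, E-box: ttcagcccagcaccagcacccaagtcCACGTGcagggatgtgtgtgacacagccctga

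A match describes the letters only. Nfil3 had a REV-ERB element match, and for Arntl, Npas2, Nr1d1, Nr1d2 and Dbp these letters were not in the window searched.

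Arntl and Per3 were the members of each arm that differed most between the environments. Within each library, Arntl had 0.133, 0.0896, 0.139 and 0.263 counts per count of Per3 in WT_SE mice 1, 2, 3 and 5, and 0.0923, 0.571, 0.241, 0.786 and 2.80 in WT_EE mice 1 to 5. WT_EE mice 2, 4 and 5 were above all WT_SE mice, and WT_EE mice 1 and 3 were within their range. This ratio needs no scaling between libraries, and it was formed after the values were seen, so no test between the environments is given. Over the listed genes of each arm, the 4 of the positive arm summed to 206, 212, 237 and 232 CPM in WT_SE and 203, 296, 181, 294 and 252 CPM in WT_EE. The 6 of the negative arm summed to 253, 512, 206 and 355 CPM in WT_SE and 399, 247, 409, 213 and 132 CPM in WT_EE. The positive arm had the higher sum in WT_SE mouse 3 and WT_EE mice 2, 4 and 5, so that the environments overlapped.

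Slc10a2, the bile acid transporter known from the ileum, was listed here with the posterior Hox genes as a marker of position along the colon. It also differed widely between libraries, with 26, 103, 110 and 16 counts in WT_SE and 107, 3, 117, 4 and 10 counts in WT_EE. The WT_EE mice with high Slc10a2, 1 and 3, were those with the higher Per3, Per2 and Ciart, and WT_SE mouse 2 was high in all of these, while WT_SE mouse 3, also high in Slc10a2, had the lowest Per2. WT_SE mice 1 and 5, low in Slc10a2, had a negative arm sum above the positive one, unlike WT_EE mice 2, 4 and 5. In WT_SE mice 2 and 3, high in Slc10a2, Per3 had 187 and 122 CPM, against 78.3 and 104 CPM in mice 1 and 5. Per2 had 131 and 20.3 CPM against 44.4 and 87.5 CPM in the same mice, and Ciart 30.6 and 20.3 CPM against 20.9 and 16.4 CPM. These mice were set side by side after the values were seen. With log2 CPM of Slc10a2 as a covariate, an alternative added after its counts were seen, the log2 fold change was 0.67 for Arntl (edgeR, unadjusted p = 0.103) and -0.28 for Per3 (unadjusted p = 0.218), and no member had an unadjusted p-value under 0.05. The part of Slc10a2, or of where each piece lay along the colon, in the values of the clock genes was not tested.

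**Figure D3:**
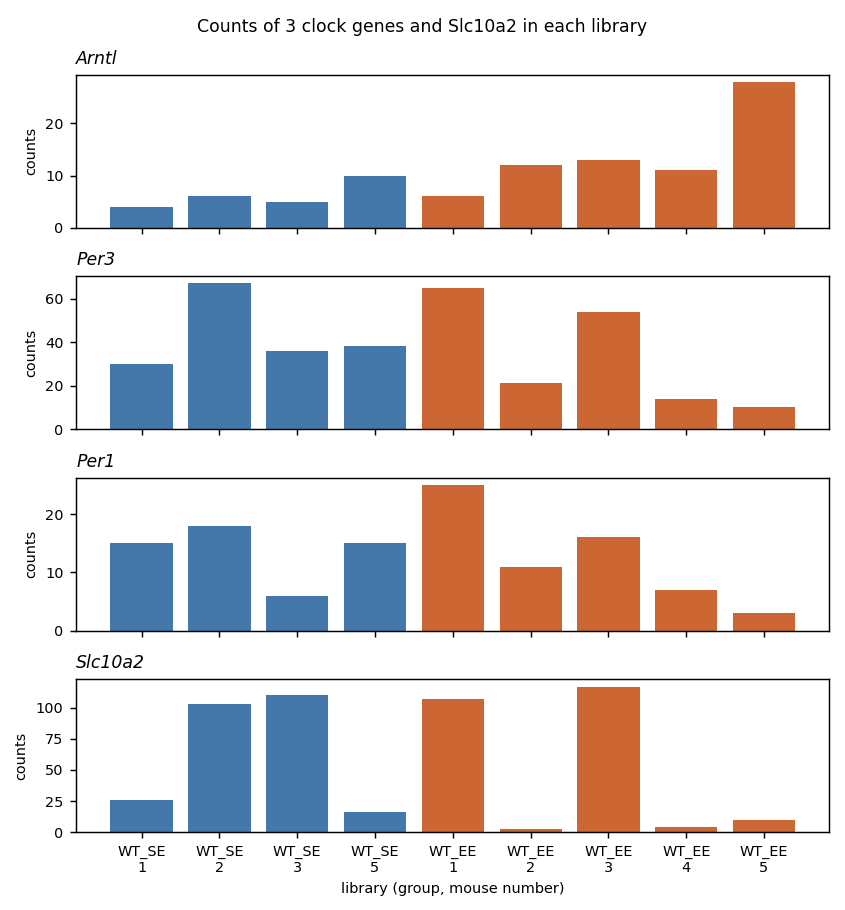
Molecule counts (vertical axes) of Arntl, Per3, Per1 and Slc10a2 in each of the 9 libraries (horizontal axis), blue for WT_SE and orange for WT_EE. WT_EE mice 1 and 3 combine high Slc10a2, 107 and 117 counts, with 65 and 54 counts of Per3, and WT_EE mouse 5 has 28 counts of Arntl and 10 of Per3.

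In all, 6 relations between members were computed within environments, on log2 CPM with each environment's mean removed, over 9 mice. Per1 and Per2 had Pearson's r = 0.55 (exact permutation p = 0.0910, Benjamini-Hochberg adjusted p = 0.287) and Spearman's rho = 0.45 (exact p = 0.210), with r = 0.27 without the 2 mice farthest from the median and 0.45 within the 7 libraries of the common name ending. Its exact permutation p was 0.0330 without WT_EE mouse 2 and 0.0365 without WT_EE mouse 3. Dbp and Per3 had r = 0.52 (exact p = 0.103, adjusted p = 0.287) and rho = 0.47 (exact p = 0.145), with r = 0.08 without 2 mice and 0.61 in the 7 libraries. Arntl and Npas2 had r = 0.62 (exact p = 0.175, adjusted p = 0.287) and rho = 0.57 (exact p = 0.161), with r = 0.0028 without 2 mice and 0.79 in the 7 libraries. The last 2 relations therefore rested on the mice left out. Arntl and Dbp had r = -0.45 (exact p = 0.191, adjusted p = 0.287) and rho = -0.62 (exact p = 0.0771), with r = -0.36 without 2 mice and -0.65 in the 7 libraries. Arntl and Nr1d1 had r = -0.39 (exact p = 0.410, adjusted p = 0.492) and rho = -0.13 (exact p = 0.773), with r = 0.50 without 2 mice and -0.47 in the 7 libraries. Dbp and Nr1d1 had r = -0.21 (exact p = 0.531, adjusted p = 0.531) and rho = -0.22 (exact p = 0.519), with r = -0.42 without 2 mice and -0.33 in the 7 libraries. None of the 6 passed the threshold, and all tests were two-sided.

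Of 18 other clock genes, 15 reached the filter in both environments, and none of these had an unadjusted p-value under 0.05, against 7.65% of all genes. Their median log2 fold change was 0.03 beside 0.01 for all genes. Arntl2, Rorb and Fbxl21 passed the filter through a single environment and are not counted. The most counted were Gsk3b, a kinase acting on clock proteins, Clock, and Tef, a D-box activator related to Dbp. Gsk3b counts ran from 93 to 108 (WT_SE) and from 94 to 112 (WT_EE), with a log2 fold change of -0.05 and a standard error of 0.14. Tef had 59, 96, 39 and 80 counts in WT_SE and 99, 59, 88, 34 and 51 in WT_EE, with -0.21 and a standard error of 0.19. The 9 members other than Nfil3 had a median of -0.22, with 6 of 9 negative.

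Of 8 clock output genes, 7 reached the filter in both environments, and of these Wee1 had lower values in WT_EE and none had higher values at an unadjusted p-value under 0.05, against 3.34% lower and 4.31% higher among all genes, with a median log2 fold change of -0.12. Avpr1a passed only through WT_EE and is not counted. Wee1, a kinase that holds cells before mitosis, had 36, 24, 18 and 29 counts in WT_SE and 25, 10, 32, 13 and 20 in WT_EE, with a log2 fold change of -0.59 and a standard error of 0.24 (edgeR, unadjusted p = 0.0171, Benjamini-Hochberg adjusted p = 0.489). The most counted others, Nampt, Por and Usp2, had log2 fold changes of -0.21, -0.12 and -0.33. None of 6 glucocorticoid-responsive genes was called, with a median of 0.17. Their most counted genes, Klf9, Fkbp5 and Sgk1, had 0.10, 0.13 and 0.20.

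Of 7 immediate early genes, which respond within minutes to stimulation of a cell, 3 had higher values in WT_EE at an unadjusted p-value under 0.05, against 4.31% of all genes, and the median was 0.49. Fosb, 1 of the 3, was at or near the floor. Nr4a1 had 10, 14, 3 and 10 counts in WT_SE and 16, 15, 26, 11 and 23 in WT_EE (log2 fold change 0.81, standard error 0.31, unadjusted p = 0.0134). Fos had 43, 10, 17 and 37 counts in WT_SE and 37, 37, 35, 29 and 81 in WT_EE (log2 fold change 0.56, standard error 0.27, unadjusted p = 0.0443). Fosb had at most 2 counts in WT_SE and at most 4 in WT_EE, so no fold change is given. WT_EE mouse 5, highest for Arntl, was also highest for Fos. The most counted others, Jun and Junb, had log2 fold changes of 0.04 and 0.11, and Egr1 had 0.24.

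Cell type markers are given beside these values. All 7 epithelial markers were counted, and their summed level was 2343 to 3127 CPM over the 9 libraries, led by Muc2. Smooth muscle markers, led by Acta2, summed to 1561, 1356, 1491 and 1670 CPM in WT_SE and 1332, 2423, 1307, 2397 and 1640 CPM in WT_EE, and 2 of 5 were called higher in WT_EE, against 4.31% of all genes. WT_EE mice 2 and 4, high in smooth muscle markers, were low in Per3 and Slc10a2, and were also the WT_EE libraries with the fewest counts. Genes as abundant as these markers grew less than in proportion to the library total. Acta2 had 126, 112, 116 and 160 counts in WT_SE and 157, 191, 131, 210 and 198 counts in WT_EE. WT_SE mouse 3, also a small library with 299062 counts, had a smooth muscle sum of 1491 CPM. The part of the library total in the smooth muscle and epithelial sums was not tested. In bulk tissue, fewer cells of a type and less RNA per cell cannot be told apart. Their part in the values of the clock genes was not tested.

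Adipocyte markers, led by Fabp4, summed to 830, 61.3, 257 and 82.0 CPM in WT_SE and 171, 317, 426, 213 and 99.5 CPM in WT_EE, with 1 of the 5 that reached the filter in both environments lower in WT_EE against 3.34% of all genes, and Adipoq was at 0 in WT_SE mice 2 and 5 and WT_EE mouse 5. B cell markers, led by Cr2, were lower in WT_EE for both of the 2 that reached the filter in each environment, against the same 3.34%, with sums of 52.2, 61.3, 3.38 and 8.20 CPM in WT_SE and at most 8.64 CPM in WT_EE, and 0 in WT_EE mice 2 and 4. Fibroblast and enteric neuron markers (4 and 6 tested) and the plasma cell marker Jchain had no gene called. Of 5 posterior Hox genes tested, which mark position along the gut, Hoxa11 was higher (log2 fold change 0.74) and Hoxd11 lower (-0.97), against 4.31% and 3.34% of all genes, and their summed level was 162 to 325 CPM in WT_SE and 188 to 342 CPM in WT_EE. Single genes ran in opposite ways within these sums. Hoxb13 had 4, 0, 0 and 56 counts in WT_SE and 0, 45, 21, 24 and 20 in WT_EE, and was at 0 in 3 of the 4 libraries with the highest Slc10a2 counts. Hoxd10 had 2, 22, 8 and 0 counts in WT_SE and 5, 0, 12, 0 and 2 in WT_EE, and was highest in those 4 libraries.

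The genes most like Dbp over the 9 libraries, among 8486 genes with a mean of at least 10 counts, were Ikbkb (Pearson's r = 0.91), Ndufaf4, Card10, Acot4 and Ptprd (each 0.88). Those most like Arntl were Kcnma1 (0.92), Ap2s1 (0.91), Smpx (0.90), Spcs3 (0.89) and Socs5 (0.88). These are the highest of many correlations and are given as a description of these libraries.

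**Figure D4:**
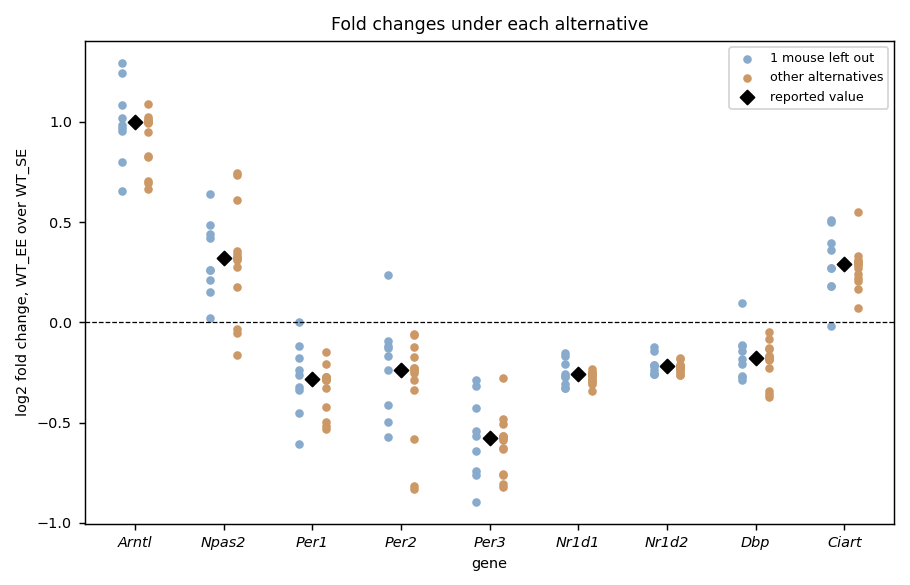
Log2 fold change between WT_EE and WT_SE (vertical axis) of 9 clock members (horizontal axis) as reported (diamonds), with 1 mouse left out (blue) and under the other alternatives (orange). Arntl stays between 0.65 and 1.30 and Per3 between -0.89 and -0.28, while Npas2, Per1, Per2, Dbp and Ciart reach both sides of 0.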

How the data were processed

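Colon RNA of 9 wild-type mice was analysed, and the transgenic samples were not analysed here. Per the labels, the authors made QuantSeq 3′ FWD libraries and used fastp 0.20.0, STAR 2.7.0f, featureCounts 1.6.0 and UMI-tools with GRCm38.p6. They deposited molecule counts per gene, whole numbers without normalization. Whether counting used strand is not given in the sources used here, so counts of Dbp, Nr1d1, Ciart and Npas2 cannot be told apart from those of antisense neighbours.

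Genes reaching 4 CPM in any library were tested in R 4.3.3 with edgeR 4.0.16 (TMM, quasi-likelihood F test, environment as the only term), with Benjamini-Hochberg adjustment over all 17441 genes. The common biological coefficient of variation was 15.1%. Exact permutation tests used all 126 ways to part 9 mice into 4 and 5, and relations used 2880 permutations within environments (Python 3.11.15, numpy 2.4.6, pandas 2.3.3, scipy 1.17.1). Figures used matplotlib 3.10.9. Log2 CPM had a prior count of 2. The floor of 3 counts equals 6.48 to 10.5 CPM. The steps were tested on simulated data.

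Genes named are the 10 members, listed genes with an unadjusted p-value under 0.05, up to 3 of the most counted others per list, and the 5 genes most like Dbp and Arntl. Members and lists were chosen with earlier results of these data known. The result of 1 marker list is not reported here. Alternatives were other filters, normalizations, tests (DESeq2 1.42.0, limma-voom 3.58.1), covariates, a replicate block and each mouse left out. Covariates for Slc10a2 and the library total were added after seeing the data. Fits within libraries chosen by their Slc10a2 count were also run, and were dropped because they select samples by a measured value.

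Pairs of libraries of the same environment gave a chi-square per degree of freedom of 1.18 to 2.52, so none was counted as a copy. Counts of abundant genes were compressed: only 20 genes had a mean of 200 counts or more, and summed counts of genes with means of 80 to 200 grew with the library total with a slope of 0.56 on a log scale, against 1.13 for means of 20 to 80 (5 members) and 1.34 for 5 to 20 (4 members).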

Additional observations from a re-analysis of the deposited data

Results flagged for a closer look

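Values in each environment were screened for a mouse far from the rest by Dixon's ratio, which picks out about 1 in 20 groups by chance. WT_EE mouse 5 had 2.80 counts of Arntl per count of Per3, and the next WT_EE mouse had 0.786, a gap that made up 0.744 of the range of the group. This ratio was formed after the values of that mouse were seen, so the chance rate does not apply to it. WT_SE mouse 5 had 5.47 CPM of Fosb, while the other WT_SE mice had 0, and this level rests on 2 counts, under the floor of 3.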

How the results depend on the processing

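No member passed the Benjamini-Hochberg adjustment under any alternative run. Of 23 alternatives, Arntl was higher in WT_EE in 23 and had an unadjusted p-value under 0.05 in 17, and Per3 was lower in 23 and called in 12. Adjusted p-values ranged from 0.182 to 1.0 for Arntl and from 0.231 to 1.0 for Per3 (edgeR, limma-voom or DESeq2, Benjamini-Hochberg). Nr1d1 and Nr1d2 kept their direction in 23 of 23.

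The number of genes at an unadjusted p-value under 0.05 was 1334, and 804 with filterByExpr, 643 with DESeq2, 688 with the ending of the library name as covariate and 680 in the libraries of the common ending. The number after adjustment was 7, and 143 with no filter, 70 with the replicate block, 38 with the log2 library total as a covariate, 2 with Slc10a2 as a covariate, and 0 with filterByExpr, DESeq2, limma-voom, the ending as a covariate or the common ending alone. Leaving Nfil3 aside, Arntl was the only member called in the main fit, against 7.65% of all genes. The same held with filterByExpr (which left out Nfil3 and Ciart), DESeq2 or the posterior Hox covariate. Arntl and Per3 were called with no filter, DESeq2's size factors, upper quartile normalization, the replicate block or the library total as a covariate. Only Per3 was called with limma-voom, Per2 and Per3 in both fits on the name ending, and no member with Slc10a2 as a covariate. With no filter 1577 of 22262 genes were called, and 804 of 8590 with filterByExpr. Among 17441 genes, 1356 were called with DESeq2's size factors, 1357 with limma-voom, 1170 with the replicate block and 1717 with the library total. With upper quartile normalization 45.0% of called genes were higher in WT_EE, against 56.3%. Fewer genes or mice enter some of these fits, and otherwise the cause was not tested.

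Npas2 turned to -0.0528 with limma-voom, -0.034 with the replicate block and -0.16 with Slc10a2 as a covariate. The replicate block also brought Per3 under the threshold (unadjusted p = 0.0209). Same-numbered mice are different animals, their deviations correlated at -0.02, 0.05, 0.11 and 0.13, and no mouse correlated best with its own number, so the numbers were not taken as pairs.

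With each mouse left out, genes called ranged from 899 to 1581, genes after adjustment from 0 to 48, members called from 0 to 3 and members without overlap from 0 to 1. Log2 fold changes ranged from -0.61 to 0.0043 for Per1, -0.57 to 0.24 for Per2, -0.29 to 0.10 for Dbp and -0.017 to 0.51 for Ciart. Differences in mean CPM ranged from -27.6 to 9.07 for Per2, -15.3 to 3.58 for Dbp and -0.57 to 8.13 for Ciart. Within environments r ranged from -0.66 to 0.0445 for Arntl and Nr1d1, from -0.0381 to 0.71 for Arntl and Npas2, and from 0.40 to 0.65 for Per1 and Per2. Members had 1.67 to 65.7 counts per library on average, which limits the precision of every value.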
